A study of Homo sapiens with 12 samples.

Results

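Nuclear-encoded poly(A) sites rich in polysomal RNA were examined in HEK293T cells, a human embryonic kidney line. A site entered this group, called polysome-rich here, if it lay on chromosomes 1 to 22 or X, had at least 50 reads in each of 4 fraction libraries, and had a log2 ratio of polysome to cytoplasm in wild-type cells at least 0.8 above the median of such sites. Of 189010 sites in the fraction table, 4709 met the chromosome and read criteria, and 298 of these (6.33%) were polysome-rich. The sites were selected on the ratio of the wild-type libraries, so that ratio is described without a test, and the knockout libraries entered only through the read minimum. RNA was measured by 3'READS+, which sequences the end of polyadenylated RNA next to the tail and so counts each transcript isoform by its 3' end.

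The fractions were polysomal and cytoplasmic RNA of STAU1-knockout cells (clone C8) and of isogenic control cells (clone C9), called wild type here, with 1 library each. The knockout had been made with a paired Cas9 nickase, and each genotype was 1 clone. For the pull-downs, the knockout clone transiently expressed STAU1-FLAG or FLAG-GFP, an unrelated tagged protein, and RNA was sequenced from the anti-FLAG pull-down and from the total lysate (input) of each, with 2 libraries in each of 4 groups. All 8 pull-down libraries thus came from cells without endogenous STAU1, and tagged STAU1 was returned by transfection in 4 of them. The labels do not say whether the 2 libraries of a group came from separate cultures, so the p-values below measure only the spread between these libraries.

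A polysome is an mRNA bound by several ribosomes, and sedimentation through a gradient separates such mRNAs from free and less loaded ones. The ratio of polysomal to cytoplasmic RNA at a 3' end therefore ranks isoforms by the share of their cytoplasmic copies found on polysomes. STAU1 (Staufen1) binds double-stranded stretches of RNA and is known for roles in the localisation, translation and decay of mRNAs, often through structures in the 3' untranslated region. Where the different poly(A) sites of 1 gene all lie in that region, its isoforms can share their coding sequence and differ in the region's length. Whether this held for the sites here was not analysed.

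The fraction libraries held 2799226 to 3483937 reads, of which 4.41% to 18.3% were mitochondrial, with the larger shares in cytoplasm. The pull-down libraries held 1245270 to 9655646 reads, the GFP pull-downs being the shallowest at 1245270 and 1291888. Sites are given by chromosome, position and strand in hg19. No gene is named, since neither table pairs a site with a gene and the annotation at hand is of another build. The part of a transcript that each site ends was likewise not analysed here, and no sequence is shown.

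In wild-type cells the centred log2 ratio of polysome to cytoplasm at the 298 sites ran from 0.80 to 2.25, with a median of 0.98. The highest value belonged to chr19:47114038 (plus strand), with 2029 polysomal and 577 cytoplasmic reads in knockout cells against 1465 polysomal and 270 cytoplasmic reads in wild-type cells. Its knockout log2 ratio was 1.49, with a 95% counting interval of 1.36 to 1.63, and its wild-type log2 ratio was 2.25 (2.06 to 2.44). Intervals here are exact binomial (Clopper-Pearson) on the reads of the 2 fractions and take each read as a separate molecule. They cover no spread between libraries, and they are too narrow where reads are amplified copies of 1 molecule. The next site, chr10:98724188 (plus strand), had a knockout log2 ratio of 0.92 and a wild-type log2 ratio of 1.74. It was followed by chr17:39847893 (plus strand), with 0.62 in knockout and 1.62 in wild-type cells.

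The other 7 of the 10 highest wild-type ratios lay between 1.53 and 1.60. Their knockout log2 ratios spread far more widely. Those of chr12:120899477 (minus strand), chrX:77160881 (plus strand), chr1:12092095 (plus strand) and chr7:26252974 (plus strand) were 1.18, 1.08, 0.99 and 0.96. At chr12:21671091 (plus strand) the knockout log2 ratio was 0.51, at chr11:61556603 (minus strand) 0.26, and at chr9:72969785 (plus strand) 0.17 with an interval of -0.12 to 0.47. Sites with almost the same measured wild-type ratio thus had knockout ratios anywhere between 0.17 and 1.18. Some of the wild-type counting intervals were wide, at 1.10 to 2.05 for chr9:72969785 and 1.17 to 1.96 for chr12:120899477.

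At the threshold, the 3 sites just inside were chr17:73163826 (minus strand), chr1:38489473 (plus strand) and chr19:9940791 (plus strand), with knockout log2 ratios of 0.50, 0.26 and 0.38. The 3 just outside were chr8:11696174, chr17:40993744 and chr21:45565590, all on the plus strand, with knockout log2 ratios of 0.30, 0.68 and 0.52. All 6 had wild-type log2 ratios that round to 0.80, and the knockout ratios on either side of the threshold overlapped.

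**Figure D1:**
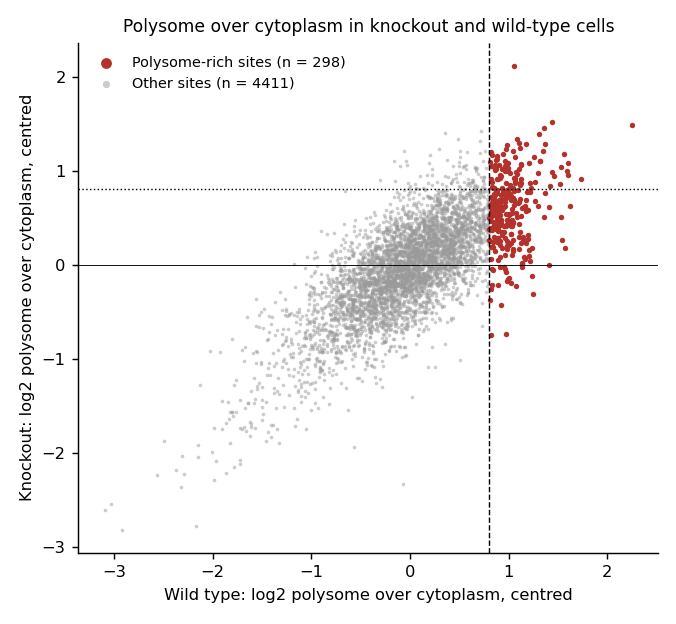
Centred log2 polysome over cytoplasm in knockout cells (y axis) against wild-type cells (x axis) for 4709 sites; red points are the 298 polysome-rich sites, grey points the others, the dashed line marks the wild-type threshold of 0.8 and the dotted line the same value in knockout cells. Most red points lie above 0 in knockout cells, and 86 lie above the dotted line.

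The knockout libraries gave a ratio at these sites that the choice had not used. Its centred log2 value had a median of 0.62 over the 298 sites, with quartiles of 0.34 and 0.85 and a range of -0.75 to 2.11. For comparison, each polysome-rich site was paired with the 5 other sites nearest in mean level over the 4 fraction libraries, 1490 in all with repeats and 1245 distinct, whose median was -0.03. The knockout ratio reached 0.8 at 86 polysome-rich sites (28.9%), at 2.15% of the level-matched sites, and at 93 of the 4411 sites outside the group (2.11%). It was above 0 at 276 polysome-rich sites (92.6%) and at 47.3% of the matched ones. The whole counting interval of the knockout ratio lay above 0 at 230 polysome-rich sites (77.2%) and at 24.1% of the matched ones. With 1 library in each fraction and genotype, these values had no replicate check.

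**Figure D2:**
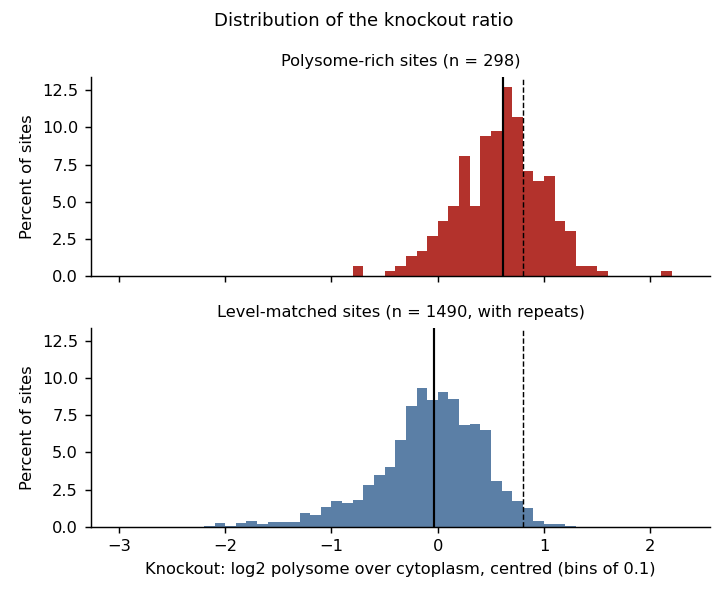
Percent of sites (y axis) by knockout centred log2 polysome over cytoplasm (x axis, bins of 0.1) for the 298 polysome-rich sites (top) and the 1490 level-matched draws (bottom); solid lines mark the medians, 0.62 and -0.03, and dashed lines mark 0.8. The upper distribution sits to the right of the lower one and the tails overlap.

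The order of the knockout ratio followed the wild-type ratio loosely within the group. The 42 sites with a wild-type log2 ratio of at least 1.2 had a knockout median of 0.86, and 57.1% of them reached 0.8. The 87 sites between 1.0 and 1.2 had a knockout median of 0.61, and the 169 sites between 0.8 and 1.0 had 0.58. Read depth made little difference to the knockout median. Sites whose lowest library had 50 to 99 reads gave 0.57 (147 sites), those with 100 to 199 gave 0.67 (79 sites) and those with at least 200 gave 0.66 (72 sites). Sites with a knockout ratio under 0 numbered 17, 2 and 3 in these classes.

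Among the 8 sites with the most reads, where counting error is smallest, the knockout log2 ratio ran from 0.44 to 1.34. The most abundant, chr12:110872707 (minus strand), had 10145 polysomal and 5159 cytoplasmic reads in knockout cells against 5928 polysomal and 2437 cytoplasmic reads in wild-type cells. Its knockout log2 ratio was 0.65 (0.60 to 0.70), below the wild-type value of 1.09 (1.02 to 1.16). At chr3:23932795 (plus strand) there were 8048 polysomal and 2998 cytoplasmic reads in knockout cells against 5658 and 2554 in wild-type cells. This site went the other way, with a knockout log2 ratio of 1.10 (1.04 to 1.16) and a wild-type log2 ratio of 0.96 (0.89 to 1.03). At chr7:127231753 (plus strand) the knockout log2 ratio of 1.34 (1.25 to 1.43) was also above the wild-type value of 1.08 (0.97 to 1.19), and the intervals did not overlap. For chr22:24108022 (minus strand) and chr17:46973230 (plus strand) the knockout log2 ratio was lower, at 0.63 and 0.44, against 1.06 and 0.91 in wild-type cells.
The remaining 3, chr12:96259911, chr14:105225990 and chr1:228286910, all on the plus strand, had knockout log2 ratios of 0.70, 1.05 and 0.81 against wild-type ratios of 0.84, 0.96 and 1.01.

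Over the whole group, knockout minus wild type had a median of -0.40 on the log2 scale, against 0.01 at the level-matched sites. The knockout interval lay wholly below the wild-type interval at 96 polysome-rich sites (32.2%) and wholly above it at 3 (1.01%), against 6.98% and 7.52% of the matched sites. Because the wild-type ratio chose the sites, this difference is not independent of the choice and is given as a description. Sites chosen instead by a knockout log2 ratio of at least 0.8 numbered 179, shared 86 with the polysome-rich sites (48.0% of the 179 and 28.9% of the 298), and had a knockout minus wild-type median of 0.21. Each choice thus gave a larger ratio in the genotype that had made it.

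Both wild-type libraries made the ratio that chose the sites, so their levels, set beside those of the knockout, are a description. Median level was 87.4 RPM (reads per 1000000 of the library's total) in knockout polysomes, 50.9 in knockout cytoplasm, 84.5 in wild-type polysomes and 34.8 in wild-type cytoplasm. The level-matched sites had medians of 64.6, 60.0, 61.8 and 59.2 RPM in the same order. Polysomal levels of the polysome-rich sites were nearly equal in both genotypes, with a median log2 knockout over wild type of -0.01. Cytoplasmic levels were higher in knockout than in wild-type cells at 246 of 298 sites, with a median log2 difference of 0.39 against 0.06 at the matched sites. At the 179 sites chosen on the knockout ratio instead, the median log2 knockout over wild-type level in cytoplasm was -0.09. Together the 298 sites held 5.17% of reads in knockout polysomes and 2.81% in knockout cytoplasm, against 5.08% in wild-type polysomes and 2.12% in wild-type cytoplasm.

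**Figure D3:**
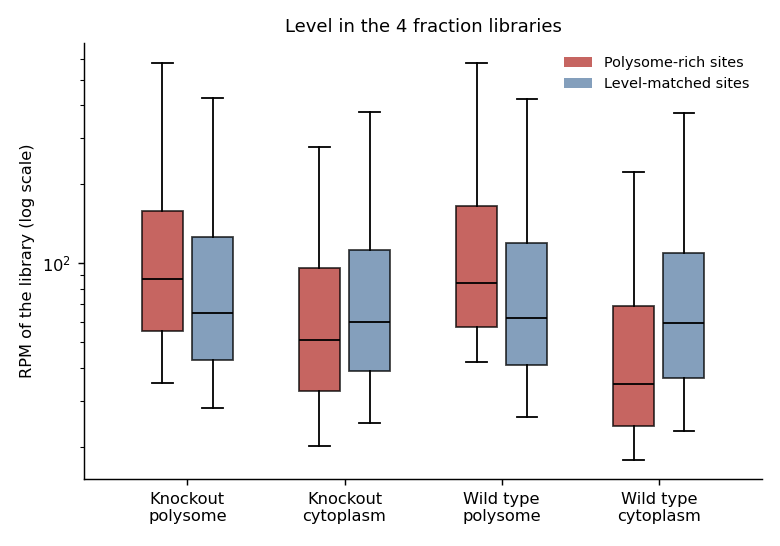
RPM (y axis, log scale) in the 4 fraction libraries (x axis) for polysome-rich (red) and level-matched (blue) sites; boxes span the quartiles, lines mark medians and whiskers the 5th and 95th percentiles. The red boxes sit higher in the polysome than in the cytoplasm library of both genotypes, with medians of 87.4 and 50.9 RPM in knockout and 84.5 and 34.8 RPM in wild-type cells.

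The knockout extremes of the group lay far apart. The highest knockout log2 ratio was 2.11 (1.73 to 2.52) at chr6:30531486 (plus strand), with 347 polysomal and 64 cytoplasmic reads in knockout cells against 144 and 61 in wild-type cells, where the log2 ratio was 1.05. Next came chr15:77242244 (plus strand) with 1.51 in knockout and 1.44 in wild-type cells. After chr19:47114038 followed chr11:117041759 and chr12:124082681, both on the plus strand, with 1.45 and 1.39 in knockout cells and 1.36 and 1.31 in wild-type cells.

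At 22 sites the knockout ratio was below 0. The lowest was -0.75 (-1.27 to -0.24) at chr5:134363472 (minus strand), from 58 polysomal and 78 cytoplasmic reads in knockout cells against 115 and 57 in wild-type cells. A better sampled one, chr13:77618793 (minus strand), had 272 polysomal and 362 cytoplasmic reads in knockout cells against 190 and 85 in wild-type cells, with a knockout log2 ratio of -0.74 (-0.97 to -0.51) and a wild-type log2 ratio of 0.97 (0.59 to 1.36). The difference there lay mostly in cytoplasm, at 112 RPM in knockout against 29.3 RPM in wild-type cells, while polysomes held 78.1 RPM in knockout and 67.9 RPM in wild-type cells. The next 3, chr17:7606819 (plus strand), chr1:26901514 (plus strand) and chr19:18979354 (minus strand), had knockout log2 ratios of -0.43, -0.38 and -0.31 and wild-type log2 ratios of 0.92, 0.81 and 1.25. All 5 counting intervals in the knockout lay below 0. None of these differences had a replicate.

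Most polysome-rich sites stood alone. With runs defined as sites on the same strand at most 5000 nt apart among the 4709, 218 of the 298 (73.2%) had no neighbour, against 77.0% of all 4709. The group held 30 proximal, 3 middle and 47 distal sites, proximal meaning the 5'-most and distal the 3'-most site of a run. Distal sites were thus 15.8% of polysome-rich sites, 10.1% of level-matched sites and 10.6% of all 4709, and 11.6% of the sites past a threshold of 1.0. Counted the other way, 9.42% of distal, 6.01% of proximal, 3.49% of middle and 6.01% of lone sites were polysome-rich. The median knockout log2 ratio of all 499 distal sites was 0.08, against -0.01 for all 499 proximal ones. The group was spread over all 23 chromosomes used, from 2.10% of the sites on chromosomes 16 and 20 to 12.4% (17 of 137) of those on chromosome X.

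Of the 298 sites, 80 had a neighbour, the nearest lying 25 to 4460 nt away with a median of 450 nt. The neighbour was polysome-rich itself for 8 of the 80 (10.0%), in 4 runs on chromosomes 7, 15, 19 and X, against 7.20% for all sites with a neighbour, so the 298 sites came from 294 runs. In the other 72 pairs the knockout log2 ratio had a median of 0.65 at the polysome-rich sites and 0.14 at their neighbours. These neighbours were above 0 in 65.3% of pairs, and all 80 neighbours, polysome-rich ones included, in 68.8%. For the 332 neighbours of matched sites, polysome-rich ones likewise included, the share was 52.4% and the median 0.02. The polysome-rich site was the higher of the pair in knockout cells in 59 of the 72 pairs, by a median of 0.45, and in 47 of the 58 pairs more than 100 nt apart. The median difference was 0.49 where the neighbour lay upstream (44 pairs) and 0.39 where it lay downstream (28 pairs).

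**Figure D4:**
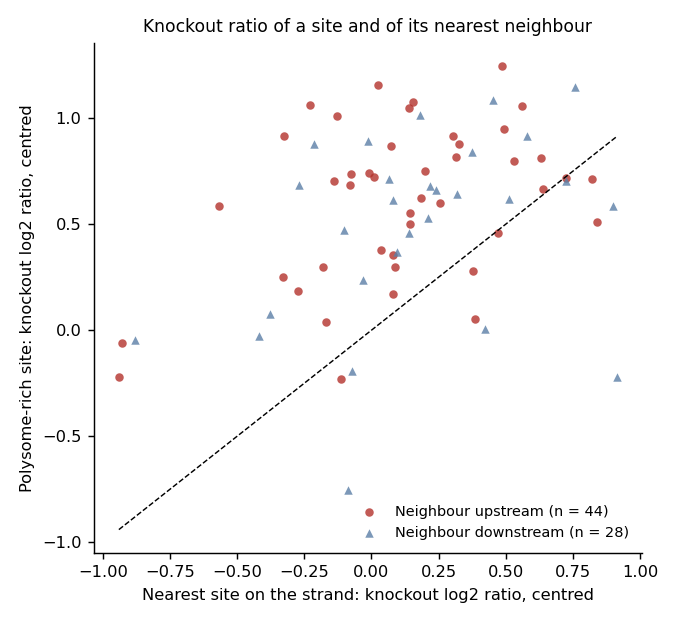
Knockout centred log2 polysome over cytoplasm of 72 polysome-rich sites (y axis) against that of the nearest site on the same strand, where that site was not polysome-rich itself (x axis); circles have the neighbour upstream, triangles downstream, and the dashed line marks equality. In 59 pairs the point lies above the line.

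The widest gap was at chr1:47098413 (minus strand), 2306 nt downstream of chr1:47100719. The distal end had 311 polysomal and 119 cytoplasmic reads in knockout cells, and the proximal end 965 and 904, so that the distal end made up 24.4% of both ends' reads in knockout polysomes and 11.6% in knockout cytoplasm. In wild-type cells its share was 27.6% in polysomes and 12.7% in cytoplasm. The same order held at chr22:45591710 (minus strand), 211 nt downstream of chr22:45591921, where the distal end made up 56.1% in knockout polysomes and 35.2% in knockout cytoplasm, against 45.9% and 24.4% in wild-type cells. At chr7:44873829 (minus strand) the distal end held 86.8% in knockout polysomes and 74.9% in knockout cytoplasm, against 85.7% and 76.1% in wild-type cells, with its neighbour only 80 nt away. The opposite extreme was chr7:5271155 (plus strand), whose knockout log2 ratio of -0.22 was 1.13 below that of its neighbour 199 nt downstream.

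The pull-down table was matched to these sites within 24 nt on the same strand. Of the 298 sites, 294 had a site that passed the expression filter, 263 of them at the same position and the farthest 21 nt away. The 4 without were chr6:30314632 and chr6:30531486 (both plus strand), with no pull-down site in the window, and chr3:122128844 (plus strand) and chr15:41601472 (minus strand), below the filter. Counts were tested with edgeR's quasi-likelihood test over all 33744 sites that passed the filter, and a site is called at a Benjamini-Hochberg adjusted p under 0.05 over all of them. The 294 sites had less signal here than the level-matched ones, with a median edgeR average of 4.83 against 5.81 on the log2 CPM scale (counts per 1000000, scaled by TMM), and fewer counts make a call harder to reach. None of these libraries had entered the choice of the sites.

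Polysome-rich 3' ends were scarce in the control pull-down. The log2 ratio of GFP pull-down over input had a median of -1.11 over the 294 sites, against -0.43 at the level-matched sites, and only 29 sites were above 0. It was called lower at 96 sites (32.7%) and higher at 2 (0.68%). Called lower were 19.9% of the matched sites, 20.7% of the other sites of the fraction table and 3.99% of all tested sites, and called higher were 5.94%, 5.24% and 2.11%. Median levels were 16.2 and 17.5 CPM in the 2 GFP pull-downs and 36.5 and 33.9 CPM in their inputs. For the matched sites they were 44.2 and 44.5 CPM in the pull-downs and 60.8 and 59.9 CPM in the inputs. In both sets the pull-down medians lay below the input medians, with the wider gap at the polysome-rich sites. The 2 sites called higher with GFP were chr19:18979354 and chr11:3379616 (both minus strand). The second, named after its values were seen, had a GFP log2 ratio of 1.22, which was 0.78 and not called without GFP pull-down library 1 and 0.87 and not called without GFP input library 1. Matched instead on their average level in the pull-down table, a set chosen after the data were seen, other fraction sites had a median log2 GFP ratio of -0.54, and 15.9% were called lower.

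The STAU1 pull-down showed a smaller deficit. Its log2 ratio over input had a median of -0.47, against -0.15 at the matched sites. It was called higher at 17 sites (5.78%) and lower at 59 (20.1%). Called higher were 9.22% of the matched sites, 8.89% of the other fraction sites and 3.06% of all tested sites, and called lower were 11.9%, 13.3% and 2.99%. Median levels were 19.9 and 22.7 CPM in the STAU1 pull-downs and 31.3 and 32.5 CPM in their inputs. The share called lower was 11.2% without STAU1 pull-down library 1, and the share called higher was 3.05% without STAU1 pull-down library 2 and 2.37% without STAU1 input library 1. Sites matched on their pull-down level had a median log2 STAU1 ratio of -0.23, with 5.71% called higher and 10.5% called lower.

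Of the 96 sites called lower with GFP, 46 were also called lower with STAU1, which is 47.9% of the 96 and 78.0% of the 59. At the other fraction sites the shared calls were 42.7% of those lower with GFP and 66.7% of those lower with STAU1, so the overlap was near that of the rest. The other 50, of 294 tested sites, were not called with STAU1. The same held for 496 of the 4353 other fraction sites and 168 of the 1464 level-matched sites, both smaller shares. Another 13 of the 294 were called lower with STAU1 and not called with GFP. That share was near those of the other fraction sites (192 of 4353) and the level-matched sites (59 of 1464). With other scalings the median of all tested sites in the GFP contrast moved from -0.16 to 0.00 (relative log expression) and 0.13 (library totals), so values are best read against it. Relative to that median the polysome-rich sites lay at -0.96 with TMM, -0.97 with relative log expression and -0.95 with library totals. Leaving out 1 library also changes which sites pass the filter, and the value was then -0.63 without GFP pull-down library 2, -0.76 without GFP pull-down library 1 and -1.22 without GFP input library 2; with no filter it was -1.55. The share called lower with GFP was 19.7% with library totals, against 10.9% of the matched sites.

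**Figure D5:**
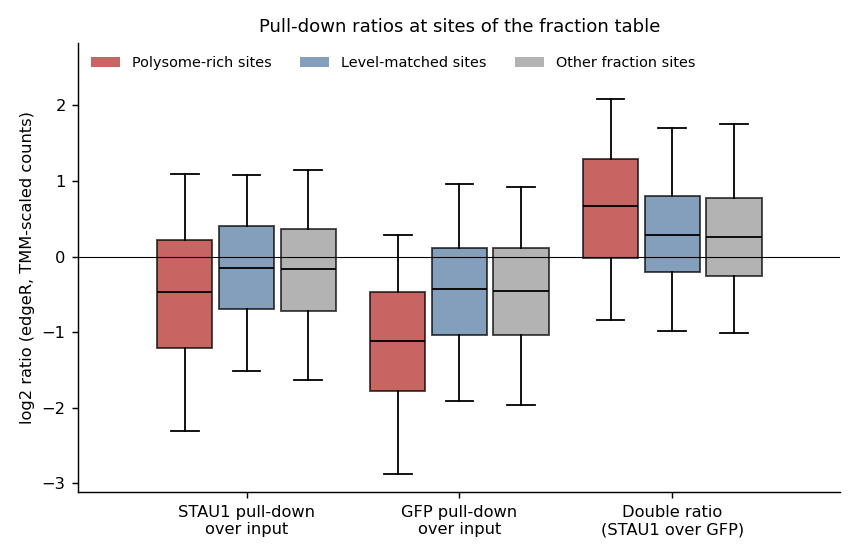
Log2 ratios from edgeR (y axis) of STAU1 pull-down over input, GFP pull-down over input and their difference (x axis) for 294 polysome-rich sites (red), level-matched sites (blue) and the other fraction sites (grey); boxes span quartiles, lines mark medians and whiskers the 5th and 95th percentiles. The red GFP box, median -1.11, is the lowest of the GFP boxes, and the red boxes overlap the others in every contrast.

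Outside the polysome-rich group, the GFP ratio was also lower where the knockout ratio was higher. Over the other sites of the fraction table with a tested pull-down site, the median log2 GFP ratio was -0.18 where the knockout log2 ratio was under -0.8 (317 sites), -0.28 from there to -0.4 (648 sites), -0.35 between -0.4 and 0 (1329 sites), -0.58 between 0 and 0.4 (1406 sites), -0.79 between 0.4 and 0.8 (562 sites) and -0.75 at 0.8 or above (91 sites). Within the polysome-rich group, the 19 sites with a knockout log2 ratio between -0.4 and 0 had a median GFP log2 ratio of -0.27, and the 85 sites at 0.8 or above had -1.22. Abundance went with the number of calls as well. In the 99 most abundant polysome-rich sites, 98 with a tested site, 56.1% were called lower with GFP, against 13.3% of the 98 tested among the 100 least abundant, while the median log2 ratio was -1.26 and -0.90. More counts make a call easier to reach, and the shares at other sites of like abundance are not given here.

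Of the 10 sites with the highest wild-type polysome ratio, 8 were called lower with GFP and 5 with STAU1. The shares were 32.7% and 20.1% over all 294 polysome-rich sites, and 21.5% and 13.7% over all fraction sites with a tested pull-down site. Over wider classes of the wild-type ratio the share called lower with GFP did not climb, at 31.5% between 0.8 and 1.0, 35.7% between 1.0 and 1.2 and 31.0% at 1.2 or above. At chr11:61556603 (minus strand) there were 19.4 and 32.8 CPM in the GFP pull-downs and 194 and 169 CPM in their inputs, and 18.8 and 18.0 CPM in the STAU1 pull-downs and 126 and 86.0 CPM in theirs. All 4 pull-downs lay well below all 4 inputs, with log2 ratios of -2.80 with GFP and -2.52 with STAU1. At chrX:77160881 (plus strand) the log2 ratios were -2.03 with GFP and -2.50 with STAU1, and at chr7:26252974 (plus strand) -1.88 and -1.45. Other calls in this set were lost when 1 library was left out, though not always with a smaller ratio. The GFP log2 ratio of -1.18 at chr10:98724188 was not called without GFP pull-down library 1 (-1.27) or 2 (-1.33) or GFP input library 1 (-1.18). At chr17:39847893 the GFP log2 ratio of -1.18 was -1.13 and not called without GFP pull-down library 1, and the STAU1 log2 ratio of -1.30 was -0.97 and not called without STAU1 pull-down library 1. At chr12:120899477 the GFP log2 ratio of -1.96 was called throughout, while the STAU1 log2 ratio of -1.60 was -1.43 and not called without STAU1 pull-down library 1.

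Among the most abundant sites, chr3:23932795 (plus strand) had 44.9 and 45.9 CPM in the GFP pull-downs and 374 and 381 CPM in their inputs, and the 2 groups were far apart. The log2 ratio was -3.05 ± 0.22 (SE, here and below the one implied by the F statistic of the test, edgeR adjusted p = 2.61e-07). With STAU1 it had 70.3 and 88.5 CPM in the pull-downs and 262 and 281 CPM in the inputs, a log2 ratio of -1.77 ± 0.20 (edgeR adjusted p = 2.3e-05). At chr12:96259911 (plus strand) the GFP log2 ratio was -3.01 and the STAU1 log2 ratio -1.63, and at chr12:110872707 (minus strand) they were -1.97 and -0.88. The STAU1 call at chr12:110872707 was lost without STAU1 pull-down library 1, where the log2 ratio was -0.70. In contrast chr22:24108022 (minus strand), with 180 and 182 CPM in the GFP pull-downs and 483 and 513 CPM in their inputs, was called lower with GFP (log2 ratio -1.46) and not with STAU1 (log2 ratio -0.49).

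The double ratio sets STAU1 pull-down over input against GFP pull-down over input. Its log2 value had a median of 0.66 at the polysome-rich sites, against 0.29 at the matched sites and 0.30 over all tested sites. The order against all tested sites changed when some libraries were left out, which also changes the sites that pass the filter. The polysome-rich median minus that of all tested sites was 0.36 here, -0.43 without STAU1 input library 2, -0.17 without GFP pull-down library 2, -0.04 without GFP pull-down library 1, 0.16 without GFP input library 1, 0.02 without STAU1 input library 1 and -1.16 with no filter. It was called higher at 10 sites (3.40%) and lower at 1 (0.34%). Called higher were 3.83% of the matched sites, 2.94% of the other fraction sites and 0.53% of all tested sites, and called lower were 0.478%, 0.459% and 0.157%. The share of polysome-rich sites with a call was thus near that of the other fraction sites, while the median was higher than at the matched sites. Sites matched on their pull-down level had a median log2 double ratio of 0.29, with 2.11% called higher. Leaving out 1 library moved the share called higher at the polysome-rich sites and at the matched sites too. The polysome-rich minus matched median then ran from 0.23 (without GFP input library 1) to 0.44 (without GFP input library 2). With all libraries, the share called higher was 1.36% with library totals and 8.50% with DESeq2, against 3.21% and 7.31% of the matched sites.

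Of the 10 sites called higher in the double ratio, 4 were also called higher with STAU1, 5 were called lower with GFP and 1 was called in neither. The lowest adjusted p belonged to chr10:15117475 (minus strand), with 317 and 259 CPM in the STAU1 pull-downs and 61.0 and 72.0 CPM in their inputs, against 57.4 and 51.7 CPM in the GFP pull-downs and 73.4 and 90.9 CPM in theirs. Both STAU1 pull-downs lay far above every other library. Its STAU1 log2 ratio was 2.11 ± 0.23 (edgeR adjusted p = 1.01e-05) and its double ratio 2.70 ± 0.32 (edgeR adjusted p = 0.000445). In the fractions its log2 polysome over cytoplasm was 0.65 in knockout and 0.83 in wild-type cells. The site chr22:37965408 (plus strand) had 140 and 210 CPM in the STAU1 pull-downs and 61.5 and 96.8 CPM in their inputs, a STAU1 log2 ratio of 1.14 and a double ratio of 2.06 (edgeR adjusted p = 0.0119). Its STAU1 call, not its double ratio, was lost without STAU1 pull-down library 2 and without STAU1 input library 1, where the STAU1 log2 ratio was 0.76 both times.

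At chr1:228286910 (plus strand) the double ratio of 2.60 ± 0.33 (edgeR adjusted p = 0.000776) came with 36.6 and 41.5 CPM in the GFP pull-downs and 219 and 161 CPM in their inputs. The STAU1 pull-downs held 146 and 180 CPM and their inputs 123 and 138 CPM, a log2 ratio of 0.32 that was not called. The same form was seen at chr19:14202509 (minus strand), with a double ratio of 2.23 from a GFP log2 ratio of -1.78 and a STAU1 log2 ratio of 0.45, and at chr19:47114038 (plus strand), the site with the highest wild-type polysome ratio. There the pull-downs held 166 and 167 CPM with STAU1 and 48.4 and 59.0 CPM with GFP, and the inputs 172 and 118 CPM for STAU1 and 116 and 193 CPM for GFP. The double ratio was 1.72 (edgeR adjusted p = 0.036), and its call was lost with relative log expression scaling (1.57) and with library totals (1.53).

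The other 5 calls of a higher double ratio were each lost when certain single libraries were left out, though not always with a smaller ratio. That of chr3:156257937 (minus strand), 1.92, was 1.71 and not called without GFP pull-down library 2, and 1.81 and not called without STAU1 input library 1, while its STAU1 log2 ratio of 1.99 was called in each case. At chr10:104238987 (minus strand), a further call beyond the 10 that the naming rule covers, the double ratio of 1.47 lost its call without GFP pull-down library 1 (1.34), STAU1 pull-down library 2 (1.42) or STAU1 input library 1 (1.26). For chr3:23932795 (plus strand), with a double ratio of 1.28, the call was lost without either GFP pull-down library (1.30 without library 1 and 1.39 without library 2), STAU1 pull-down library 2 (1.16) or STAU1 input library 1 (1.26). At chr3:23632070 (plus strand) the double ratio of 1.96 was not called without either GFP pull-down library, GFP input library 1, STAU1 pull-down library 2 or STAU1 input library 1 (1.69 to 2.08). That of 1.34 at chr15:64979776 (minus strand) was not called without any 1 library other than GFP input library 2 and STAU1 input library 2 (1.22 to 1.39).

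The single site called lower was chr6:24786323 (plus strand). It held 12.2 and 14.7 CPM in the STAU1 pull-downs and 37.7 and 48.6 CPM in their inputs, against 60.1 and 64.1 CPM in the GFP pull-downs and 29.5 and 41.7 CPM in theirs. STAU1 pull-downs were the lowest libraries and GFP pull-downs the highest, without overlap. The double ratio was -2.49 ± 0.43 (edgeR adjusted p = 0.00798), and its polysome over cytoplasm log2 ratio was 0.55 in knockout and 1.03 in wild-type cells.

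The 5 largest STAU1 log2 ratios among called sites were 2.19 at chr19:18979354 (minus strand), 2.11 at chr10:15117475, 1.99 at chr3:156257937, 1.92 at chr19:7989382 (minus strand) and 1.46 at chr22:45591710 (minus strand). The first had 145 and 165 CPM in the STAU1 pull-downs and 29.4 and 38.1 CPM in their inputs, and was higher with GFP too, at 56.7 and 51.0 CPM in the pull-downs and 26.6 and 25.7 CPM in the inputs. Its GFP log2 ratio was 1.04, called with all libraries and not without either GFP pull-down or either GFP input library (0.89 to 0.98) or STAU1 pull-down library 2 (0.94). The knockout log2 polysome ratios of the 5 sites were mixed. They were -0.31 at chr19:18979354 and -0.06 (-0.23 to 0.11) at chr19:7989382, but 0.65 at chr10:15117475, 0.91 at chr3:156257937 and 0.92 at chr22:45591710. The call at chr22:45591710 was lost without STAU1 pull-down library 2 (1.02) and without STAU1 input library 1 (1.11). At chr5:134363472 (minus strand), the lowest in the knockout fractions, the STAU1 log2 ratio was 1.37 and its call was lost without the same 2 libraries (1.21 and 0.91).

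At the other end, chr4:177249496 (plus strand) had 0 reads in both STAU1 pull-downs against 77 and 9 reads in their inputs. Taking 3 reads over the 2 pull-downs as the limit, it was at least 25.0-fold lower than input, mostly from input library 1, and its call was lost without that library or without either STAU1 pull-down library. Both GFP pull-downs also had 0 reads, against only 25 and 6 reads in their inputs. With the same limit of 3 reads that is at least 1.96-fold lower, and the site was not called with GFP. The others were chr15:64657790 (minus strand), with 3.40 and 4.78 CPM in the STAU1 pull-downs and 49.0 and 38.5 CPM in their inputs (log2 ratio -3.41, edgeR adjusted p = 2.94e-05), chrX:15843931 (minus strand) at -3.40, chrX:134155316 (minus strand) at -3.06 and chr5:76987070 (minus strand) at -2.90. At chr15:64657790 and chr5:76987070 the GFP log2 ratios were nearly as low, at -2.78 and -2.77. That at chrX:134155316 was -2.59 and not called without STAU1 pull-down library 2, and -2.84 and not called without STAU1 input library 1.

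The sites also differed from others in their level in the lysate. The tables were scaled separately, so a level set across them is a rank among sites and not an amount. The log2 of mean input CPM over knockout cytoplasm RPM had a median of -0.72 at the 294 polysome-rich sites, with quartiles of -1.57 and 0.08, against -0.17 at the matched sites and -0.18 at the other 4353 sites. It was -2 or lower at 50 polysome-rich sites (17.0%) and at 9.08% of matched sites. The sites matched on pull-down level lay nearer, with a median of -0.53 and 13.8% at -2 or lower. The most abundant site, chr12:110872707, had 1596 RPM in knockout cytoplasm. Its inputs held 197 and 181 CPM for STAU1 and 266 and 236 CPM for GFP. Their mean of 220 CPM gave a log2 value of -2.86. This value was not uniform over the group, with 1.52 at chr7:127231753. The input libraries came from the same clone as the knockout fractions, after transfection.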

How the data were processed

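Polyadenylated RNA of 12 libraries was counted at poly(A) sites by 3'READS+. Per the submitters' processing notes, STAR was the aligner and hg19 the build; its version, how sites were clustered and any read filters are not given in the sources used here. As raw read counts per site, the authors deposited 1 table for 8 pull-down libraries (640413 sites) and 1 for 4 fraction libraries (189010 sites). Every per-sample column was used.

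The polysome-rich sites, the comparisons and the alternatives were chosen with earlier results of these data known. In the fractions, counts were scaled to 1000000 reads per library (RPM), and log2 of polysome over cytoplasm was centred on the median of the 4709 sites that had 50 reads or more in all 4, 0.22 in knockout and 0.24 in wild-type cells. No pseudocount was added and no test was made, with 1 library per group. Level-matched sites were the 5 nearest in mean log2 level over the 4 libraries, for each polysome-rich site. Counts of the pull-downs entered edgeR's quasi-likelihood test (version 4.0.16, R 4.3.3; 4 groups, 4 residual degrees of freedom, TMM scaling, filterByExpr, Benjamini-Hochberg adjustment), and CPM values are scaled by TMM. The same fit was also run on artificial counts with known changes. Python 3.11.15 with pandas was used for the rest.

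Sites named are those with the 10 highest wild-type ratios, the 8 most reads, the 5 highest and 5 lowest knockout ratios, 3 on either side of the threshold, up to 10 called in the double ratio, and the 5 largest and 5 smallest STAU1 ratios among called sites. The planned gene lists, the marker check and a check of the STAU1 transcript need annotation of hg19 and were not used here. Alternatives were scaling, DESeq2 1.42.0, filters, thresholds, windows and leaving out each pull-down library.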

Additional observations from a re-analysis of the deposited data

Results flagged for a closer look

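At 11 polysome-rich sites the pull-down with STAU1 and that with GFP differed from their inputs by unequal amounts, in the edgeR test of the difference itself. The shares were near those of the matched sites, at 3.40% against 3.83% called higher and 0.34% against 0.478% called lower. Several of these calls were lost with another scaling or without 1 library. The log2 double ratio was 2.70 at chr10:15117475, 2.60 at chr1:228286910, 2.23 at chr19:14202509, 2.06 at chr22:37965408, 1.96 at chr3:23632070, 1.92 at chr3:156257937, 1.72 at chr19:47114038, 1.47 at chr10:104238987, 1.34 at chr15:64979776, 1.28 at chr3:23932795 and -2.49 at chr6:24786323.

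At the 5 polysome-rich sites with the lowest knockout ratios, polysome over cytoplasm was below the centre in knockout and above it in wild-type cells. The knockout log2 ratio was -0.75 at chr5:134363472, -0.74 at chr13:77618793, -0.43 at chr17:7606819, -0.38 at chr1:26901514 and -0.31 at chr19:18979354. The wild-type values had chosen the sites, each group was 1 library, and the difference was not tested.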

How the results depend on the processing

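The knockout ratio kept its place under other read minimums, a pseudocount and TMM centring. With a selection threshold of 0.6 (593 sites) its median was 0.51 and 20.2% of sites reached 0.8; with 1.0 (129 sites) they were 0.68 and 37.2%. Median knockout cytoplasm level was 24.1 RPM with a minimum of 20 reads and 93.7 RPM with 100, which the minimum itself sets. Distal sites were 11.6% with a threshold of 1.0, and lone sites 78.3%; counting neighbours from 20 reads, lone sites were 62.8%, against 65.5% of all sites.

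For GFP pull-down over input, the percent called lower was 19.7 with library totals, against 10.9 of matched sites, and 24.1 to 46.4 leaving out 1 library; the percent called higher was 2.72 with library totals, 2.38 with DESeq2, 0.00 with no filter or a minimum of 100 reads, 1.59 with a threshold of 1.0 and 0.00 to 0.678 leaving out 1 library. For STAU1, 2.03% were called higher with no filter, 2.37% to 6.78% leaving out 1 library, and 11.2% to 23.1% were called lower leaving out 1 library. For the double ratio, the percent called higher was 2.04 with relative log expression, 1.36 with library totals, 8.50 with DESeq2, 8.45 with no filter, 5.41 with a minimum of 100 reads and 2.37 to 14.9 leaving out 1 library. The percent called lower was 0.68 with DESeq2, 0.17 with a threshold of 0.6, 0.79 with 1.0 and 0.68 with a minimum of 100 reads. The causes were not tested. The median polysome-rich minus matched log2 ratio stayed between -0.76 and -0.55 for GFP, -0.43 and -0.21 for STAU1, and 0.23 and 0.44 for the double ratio when a library was left out.

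With the replicate number as a replicate block, 8.84% were called higher in the double ratio, against 6.22% of matched sites. Same-numbered libraries did not deviate together over all tested sites (correlations of -0.02 to 0.02). That does not settle whether they shared a lysate, because counting noise can hide a shared deviation, and the labels do not say. The GFP pull-downs had 1291888 and 1245270 reads, which limits the depth of that contrast.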
